A study of Homo sapiens with 3 samples.

Results

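The genes described here are 60 genes of mitosis, taken by symbol from a table of 50868 genes: cyclins and CDK1, mitotic kinases, kinetochore and spindle proteins, kinesins, condensin subunits and their transcription factors. Their RNA was measured in the human gastric cancer line HGC-27, which derives from a metastasis of an undifferentiated carcinoma, at passage 6 and 48 h after transfection. Of the 3 cultures, 1 received an siRNA against IRF3, which drives interferon genes after viral infection, 1 an siRNA against YAP, the coactivator that the Hippo pathway restrains, and 1 a control siRNA. Each group had 1 library, so no test across samples was possible, no p-value is given, and differences between cultures cannot be told apart from those between siRNAs. Both knockdowns were set against the same control library, so a value particular to that library enters both ratios.

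Most of these genes are switched on together late in the cell cycle. The DREAM and MMB complexes, which share a MuvB core, and the transcription factor FOXM1 act through promoter elements named CHR, and the factor NF-Y binds CCAAT boxes beside them. CDK1 with its cyclins drives entry into mitosis, the checkpoint holds the anaphase-promoting complex (APC/C) in check until every chromosome is attached, and kinesins and the chromosomal passenger complex complete segregation and cleavage. Proliferating cells carry these RNAs mainly in the G2 and M phases, so fewer cells in those phases and less RNA per cell cannot be told apart in a bulk library.

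Counts assigned to genes came to 14941556 with IRF3 siRNA, 14385959 with YAP siRNA and 13949401 with control siRNA. YAP1 had 561 counts with IRF3 siRNA, 337 with YAP siRNA and 861 with control siRNA, ratios to control of 0.608 (95% counting interval 0.546 to 0.677) and 0.380 (0.334 to 0.431). IRF3, whose exons overlap those of BCL2L12 on the other strand, had 597, 764 and 681 counts in the same order, and its ratio with IRF3 siRNA was 0.818 (0.732 to 0.915). The reduction of IRF3 in the library labelled IRF3 siRNA was therefore small. Of 8 epithelial markers 2 reached a mean of 1 FPKM, while all 9 fibroblast markers did, and 4 of 6 gastric lineage markers (MUC6, TFF1, TFF2 and GKN1) were listed at 0 in every library. The epithelial markers summed to 3.02 FPKM with IRF3 siRNA, 3.42 with YAP siRNA and 6.18 with control siRNA, and the fibroblast markers to 1211, 1262 and 1394 FPKM. TJP1 and DSP made up most of the epithelial sum, with 0.992, 1.16 and 2.28 FPKM and 1.22, 1.21 and 2.88 FPKM in the same order, whereas EPCAM had 0.109, 0.162 and 0.0837 FPKM. COL1A1, COL3A1 and VIM made up most of the fibroblast sum, whereas THY1 had 14.5, 8.88 and 7.03 FPKM. Of 6 leukocyte markers 1 reached a mean of 1 FPKM, of 4 endothelial markers 0 and of 4 erythroid markers 2. The part of these markers in the results below was not tested.

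The genes of mitosis did not move as 1 block. MKI67, CENPF, ANLN, ECT2, SMC2 and the kinesins KIF14 and KIF18A were at least 2-fold lower with either siRNA than with control siRNA, as were TOP2A and KIF20B with IRF3 siRNA and SMC4 with YAP siRNA. The cyclins, CDK1, CDC20, the Aurora kinases and PLK1 stayed within 2-fold. With IRF3 siRNA 9 of 60 genes were at least 2-fold lower, where 2.98% of 11103 genes with a mean of at least 1 FPKM were. With YAP siRNA 8 of 60 were, where the share of all genes was 2.65%. No mitotic gene was 2-fold higher, beside 0.91% of all genes with IRF3 siRNA and 1.04% with YAP siRNA. Ratios here are of CPM (counts scaled to the library's total, with 0.5 count added), in which gene length cancels, and their intervals cover counting error only.

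These shares do not compare like with like, because 9 of the 60 genes had a mean below 1 FPKM (KIF14, KIF15, KIF18A, KIF20B, PLK4, CENPE, ECT2, SMC2 and SMC4), and 6 of the 10 genes past 2-fold in either knockdown are among them. Among the 51 genes with a mean of at least 1 FPKM, 4 were 2-fold lower with IRF3 siRNA and 3 with YAP siRNA. Over the 14111 genes with a mean count of at least 20, a filter that all 60 genes pass, 6.1% were 2-fold lower with IRF3 siRNA and 5.34% with YAP siRNA. A pseudocount of 1 added to FPKM shrinks low and long genes most. On that scale 0 of 60 genes were 2-fold lower with IRF3 siRNA and 1 of 60 with YAP siRNA. Of the 11103 genes with a mean of at least 1 FPKM, which leave out 9 of the 60, 0.612% and 0.468% were. At 1.5-fold on the CPM scale, 17 of 60 were lower in each comparison, where 18.5% of genes with a mean count of at least 20 were lower with IRF3 siRNA and 16.1% with YAP siRNA. Of the 51 genes with a mean of at least 1 FPKM, 10 and 9 were, where 12.6% and 10.5% of all such genes were.

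The median log2 ratio of the 60 genes was -0.19 with IRF3 siRNA and -0.16 with YAP siRNA. Over genes with a mean count of at least 20 the medians were -0.10 and -0.08 in the same order. The counting interval lay wholly below a ratio of 1 in 30 of 60 genes with IRF3 siRNA and in 31 with YAP siRNA. It lay wholly above 1 in 16 and 9. No share of all genes is given for these counts. Log2 ratios lay below 0 in 40 and 43 of the 60 genes. Of the 14111 genes with a mean count of at least 20, 8400 and 8250 had log2 ratios below 0.

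**Figure D1:**
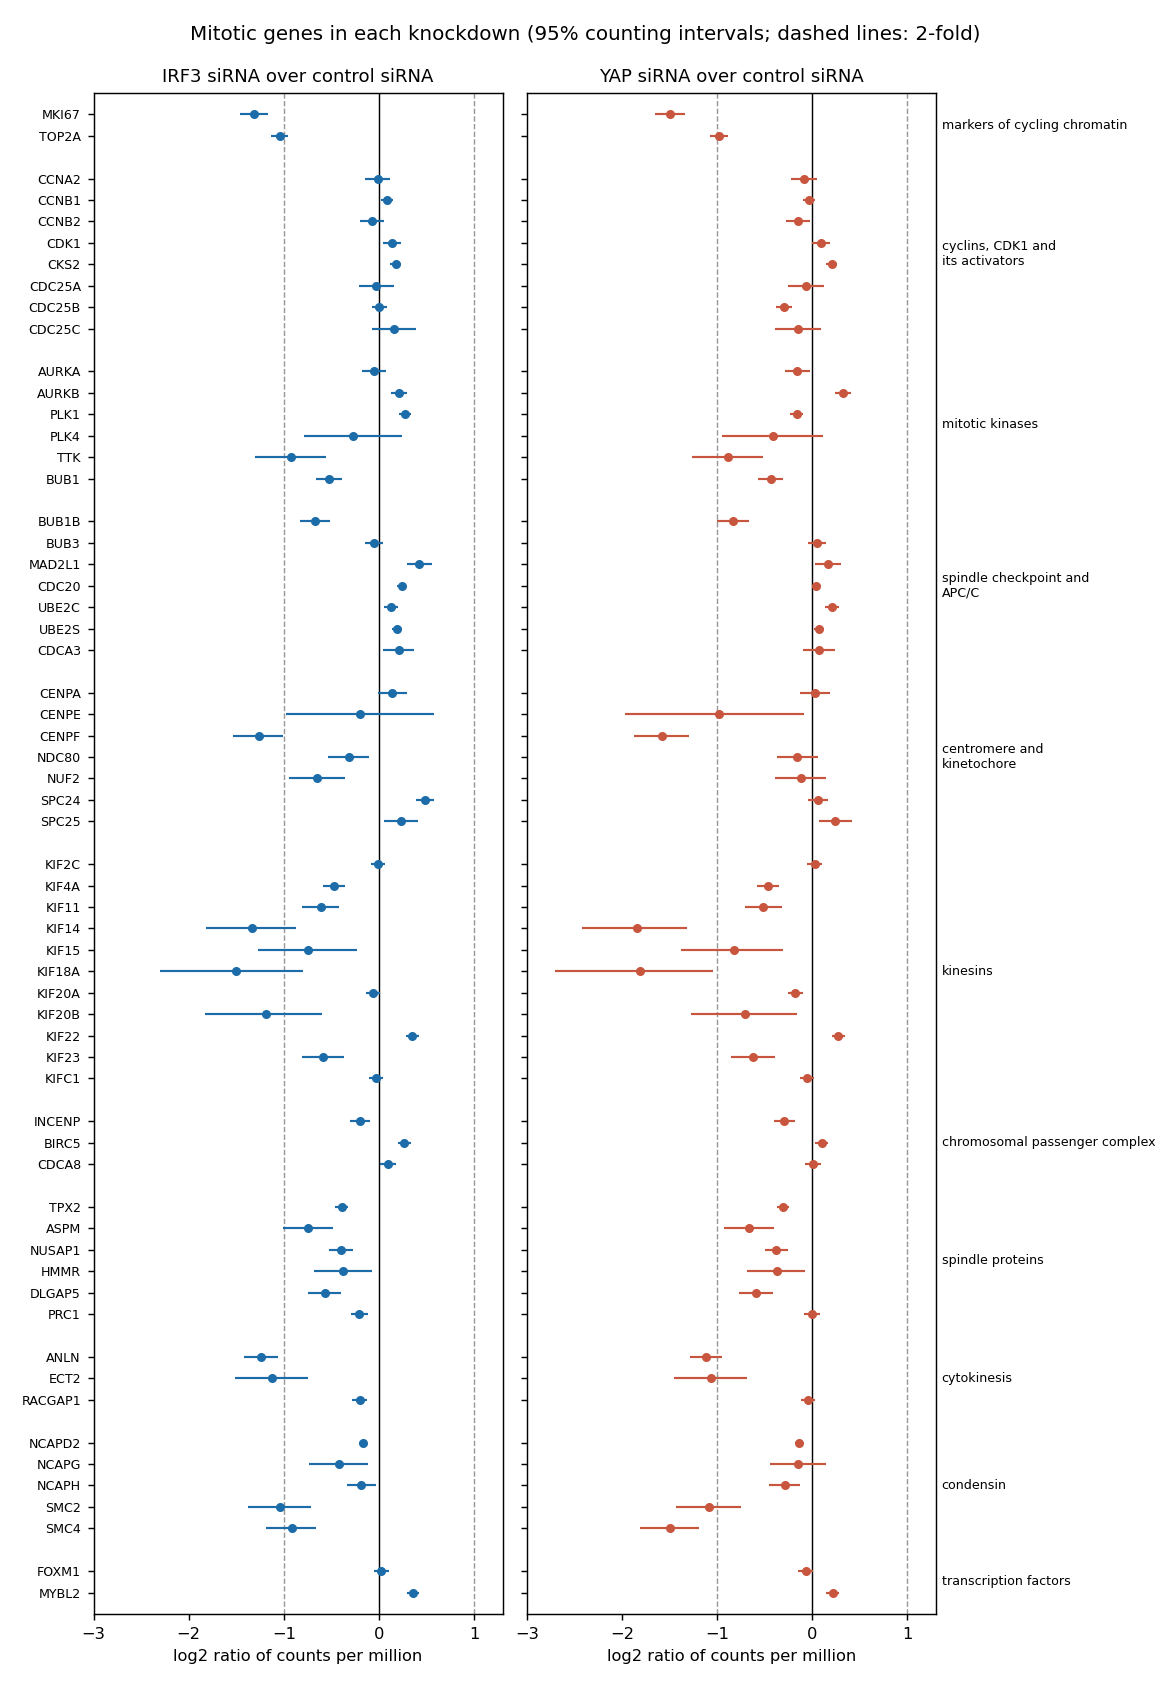
Log2 ratio of CPM of each of the 60 genes, by role, for IRF3 siRNA over control siRNA on the left and YAP siRNA over control siRNA on the right; points are the ratios of 1 library to 1 library, bars 95% counting intervals and dashed lines 2-fold. MKI67, CENPF, ANLN, KIF14 and KIF18A lie left of the dashed line in both panels, and the cyclins lie near 0.

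MKI67 and TOP2A mark cycling cells: the first encodes Ki-67, a coat of mitotic chromosomes, and the second a topoisomerase that untangles DNA. MKI67 (ENSG00000148773, chromosome 10, 128096659 to 128126385, hg38) had 2.02 FPKM with IRF3 siRNA, 1.78 FPKM with YAP siRNA and 5.02 FPKM with control siRNA, from 530, 448 and 1228 counts. Its ratio to control was 0.403 (0.363 to 0.447) with IRF3 siRNA and 0.354 (0.317 to 0.394) with YAP siRNA. TOP2A (chromosome 17, 40388516 to 40417950) had 12.9, 13.5 and 26.6 FPKM with IRF3, YAP and control siRNA. Its log2 ratio was -1.04 with IRF3 siRNA and -0.98 with YAP siRNA, so that it passed 2-fold in 1 comparison and missed it narrowly in the other. Both genes had their highest level in the control library.

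Promoters of 4 genes are shown because they set strongly lowered genes beside genes that were not lowered: MKI67 and KIF14 were at least 2-fold lower with either siRNA, whereas CDC20 and CKS2 were not lower than control with either. The bases run 5′ to 3′ on the gene's own strand, from 170 before to 30 after its start, from RefSeq's GRCh38.p14 promoter table. Capitals mark every CHR match (TTTGAA, or TTCAAA on the other strand) and every CCAAT box (CCAAT, or ATTGG on the other strand).
MKI67 (chr10:128126394-128126593, minus strand): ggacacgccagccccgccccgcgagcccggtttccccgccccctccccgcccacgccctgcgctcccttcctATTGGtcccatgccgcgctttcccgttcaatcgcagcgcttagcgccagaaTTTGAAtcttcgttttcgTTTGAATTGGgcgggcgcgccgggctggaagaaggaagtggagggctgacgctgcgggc
KIF14 (chr1:200620722-200620921, minus strand): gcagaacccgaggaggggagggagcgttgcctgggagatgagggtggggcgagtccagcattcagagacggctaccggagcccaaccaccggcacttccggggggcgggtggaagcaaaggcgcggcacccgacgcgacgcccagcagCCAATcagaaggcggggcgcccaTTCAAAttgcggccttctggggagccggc
CDC20 (chr1:43358811-43359010, plus strand): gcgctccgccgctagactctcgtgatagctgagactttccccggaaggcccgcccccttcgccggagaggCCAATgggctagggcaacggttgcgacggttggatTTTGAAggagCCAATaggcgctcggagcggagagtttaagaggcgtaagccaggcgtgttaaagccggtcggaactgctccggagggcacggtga
CKS2 (chr9:89311025-89311224, plus strand): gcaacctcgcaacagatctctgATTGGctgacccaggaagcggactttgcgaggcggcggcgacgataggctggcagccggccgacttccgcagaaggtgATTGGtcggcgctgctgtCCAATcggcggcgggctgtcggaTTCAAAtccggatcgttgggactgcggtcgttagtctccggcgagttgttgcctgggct
All 4 stretches hold both motifs, and in MKI67 a CHR match and a CCAAT box overlap by 1 base.

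In the whole windows of that table, 52 of the 60 genes were found. The CHR letters stood in 37 of these 52 promoters (71.2%), against 15.4% of all 27305 promoters, and a CCAAT box stood in 38 (73.1%), against 35.7%. Both stood in 53.8% of the mitotic promoters and in 6.08% of all. The CHR letters were in 10 of the 10 promoters of genes past 2-fold in either knockdown and in 27 of the other 42 (64.3%), while a CCAAT box was in 7 of 10 and in 31 of 42 (73.8%). A match of letters is a description of the sequence and does not show that a factor binds there.

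**Figure D2:**
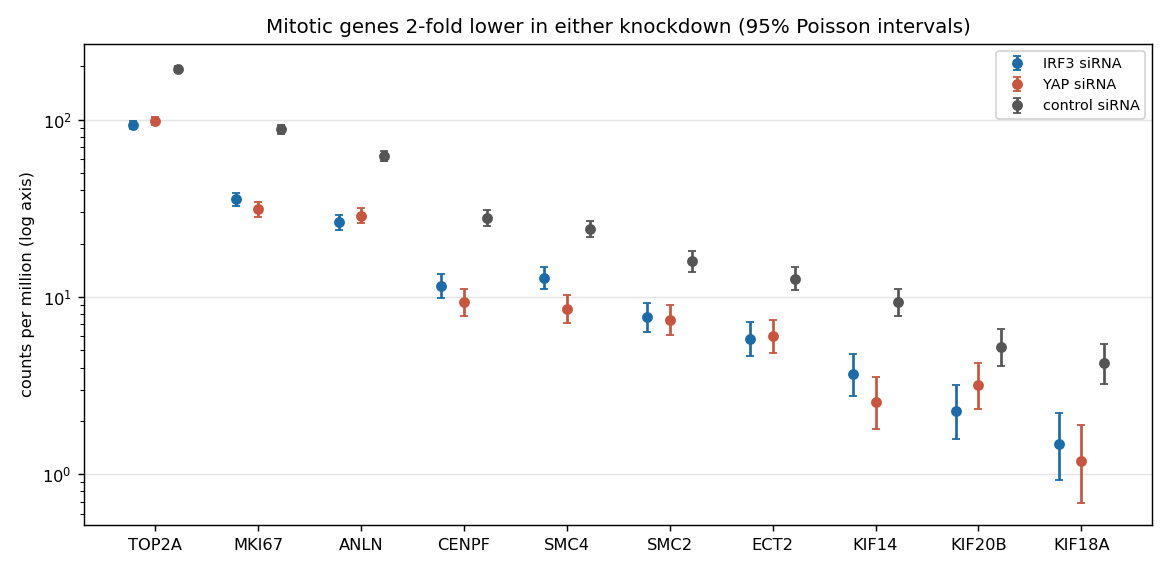
CPM (counts scaled to the library's total; log axis) of the 10 genes at least 2-fold lower with IRF3 or YAP siRNA; each point is 1 library and bars are 95% Poisson intervals of its count. The control siRNA point is the highest of the 3 for every gene, and the intervals are widest for KIF18A, with 22, 17 and 59 counts with IRF3, YAP and control siRNA.

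Cyclins and CDK1, the engine of mitotic entry, differed little from control. With IRF3 siRNA 5 of 8 genes were above control and the median log2 ratio was 0.04, while with YAP siRNA 2 of 8 were and the median was -0.08, or 0.011 with TMM scaling. TMM raises every log2 ratio to control by 0.10 with IRF3 siRNA and by 0.09 with YAP siRNA, so signs of values this near 0 depend on it. CCNB1, cyclin B1, had 81.2 FPKM with IRF3 siRNA, 74.8 FPKM with YAP siRNA and 76.5 FPKM with control siRNA. CKS2, a small subunit that binds CDK1, was the most abundant of the 60 genes, at 612 FPKM with IRF3 siRNA, 624 FPKM with YAP siRNA and 542 FPKM with control siRNA. Its ratio was the highest of the group with either siRNA, 1.13 (1.09 to 1.18) and 1.15 (1.11 to 1.2) in that order. The lowest ratio of the group belonged to CCNB2 with IRF3 siRNA, 0.949 (0.870 to 1.04), an interval that includes 1. With YAP siRNA it belonged to CDC25B, a phosphatase that activates CDK1, at 0.812 (0.766 to 0.861).

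None of the 6 mitotic kinases passed 2-fold. Over genes with a mean count of at least 20, 6.1% and 5.34% were 2-fold lower with IRF3 and YAP siRNA. TTK, the kinase also called MPS1 that starts the checkpoint, was the lowest with either siRNA: it had 97 counts with IRF3 siRNA, 96 with YAP siRNA and 172 with control siRNA, log2 ratios of -0.92 and -0.88. AURKB, the kinase of the chromosomal passenger complex, was the highest with YAP siRNA, with 29.8 FPKM against 23.8 FPKM in control and a ratio of 1.25 (1.18 to 1.33). PLK1, which acts from mitotic entry to cytokinesis, was on opposite sides of control: it had 33.6 FPKM with IRF3 siRNA, 24.8 FPKM with YAP siRNA and 27.8 FPKM with control siRNA. Its ratio was 1.21 (1.15 to 1.26) with IRF3 siRNA and 0.892 (0.849 to 0.937) with YAP siRNA, both within 2-fold.

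In the spindle checkpoint and the APC/C pathway, the kinase-like BUB1B (BubR1) stood apart from the small proteins. BUB1B had 4.93 FPKM with IRF3 siRNA, 4.405 FPKM with YAP siRNA and 7.84 FPKM with control siRNA, ratios of 0.628 (0.563 to 0.701) and 0.562 (0.501 to 0.630). It shares exon sequence with PAK6 on the same strand. MAD2L1, which forms the inhibitor of CDC20 together with BUB1B, had 9.90 FPKM with IRF3 siRNA, 8.24 FPKM with YAP siRNA and 7.37 FPKM with control siRNA. The ratio of MAD2L1 to BUB1B in FPKM was 2.01 with IRF3 siRNA, 1.87 with YAP siRNA and 0.939 with control siRNA. UBE2C, a ubiquitin-conjugating enzyme of the APC/C, was the highest of the group with YAP siRNA at a ratio of 1.15 (1.09 to 1.21). CDC20, the APC/C activator, had 194, 169 and 165 FPKM with IRF3, YAP and control siRNA. UBE2S, the enzyme that extends ubiquitin chains, is uncertain because its pseudogenes UBE2SP1 and UBE2SP2 took counts in every library. With IRF3, YAP and control siRNA, UBE2SP1 had 1547, 1513 and 1183 counts and UBE2SP2 had 749, 774 and 575.

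Among centromere and kinetochore genes, CENPF was the lowest with either siRNA and the subunits of the NDC80 complex, which binds microtubules, diverged. CENPF (chromosome 1, 214603195 to 214664588), a large protein of the outer kinetochore, had 0.911 FPKM with IRF3 siRNA, 0.733 FPKM with YAP siRNA and 2.19 FPKM with control siRNA. Its ratio was 0.415 (0.345 to 0.498) with IRF3 siRNA and 0.334 (0.272 to 0.407) with YAP siRNA. CENPE, a kinesin that moves chromosomes to the spindle equator, had 29 counts with IRF3 siRNA, 16 with YAP siRNA and 31 with control siRNA. Its ratio of 0.873 with IRF3 siRNA had an interval of 0.508 to 1.5, and with YAP siRNA its log2 ratio was -0.98, with an interval of the ratio of 0.256 to 0.943. At this depth a difference of CENPE with IRF3 siRNA was not detectable.

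SPC24, a subunit that anchors the NDC80 complex at the inner kinetochore, had 28.0 FPKM with IRF3 siRNA, 20.8 FPKM with YAP siRNA and 19.98 FPKM with control siRNA, the highest ratio of the group with IRF3 siRNA at 1.40 (1.31 to 1.5). It is among the 23 genes that share exon sequence with another counted gene. SPC25, its partner, had the highest ratio of the group with YAP siRNA, 1.18 (1.05 to 1.34). NDC80 and NUF2, the longer subunits that touch the microtubule, had log2 ratios of -0.32 and -0.65 with IRF3 siRNA. With YAP siRNA these were only -0.16 and -0.12, and TMM scaling, which adds 0.09, brings them nearer to no change. The ratio of SPC24 to NDC80 in FPKM was 5.08 with IRF3 siRNA, 3.39 with YAP siRNA and 2.91 with control siRNA. CENPA, the histone of centromeric chromatin, had log2 ratios of 0.14 and 0.03.

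Kinesins, the motors of the spindle, spread the most widely. With IRF3 siRNA their median log2 ratio was -0.59 and 3 of 11 were at least 2-fold lower. With YAP siRNA these values were -0.52 and 2 of 11. Those 3 kinesins all had a mean below 1 FPKM. Over all genes with a mean count of at least 20, 6.1% and 5.34% were 2-fold lower with IRF3 and YAP siRNA, and over those with coding lengths from 3000 to under 6000 bases, which 5 of the 11 kinesins have, 17.1% and 13.8% were. KIF14 (chromosome 1, 200551497 to 200620734), which recruits citron kinase for cytokinesis, had 55 counts with IRF3 siRNA, 37 with YAP siRNA and 130 with control siRNA. It had the lowest ratio of all 60 genes with YAP siRNA, 0.276 (0.186 to 0.400). KIF18A (chromosome 11, 28020620 to 28108308), which shortens kinetochore microtubules, had 22, 17 and 59 counts and the lowest ratio of all with IRF3 siRNA, 0.348 (0.203 to 0.577). KIF20B, a motor of the late central spindle, had 34, 46 and 73 counts in the same order, and its log2 ratio was -1.19 with IRF3 siRNA, past 2-fold, and -0.70 with YAP siRNA, short of it.

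KIF22, a chromosome-arm motor, was the highest of the kinesins with either siRNA, at 35.3 FPKM with IRF3 siRNA, 33.4 FPKM with YAP siRNA and 27.7 FPKM with control siRNA. KIF11, the motor that pushes spindle poles apart, had log2 ratios of -0.61 and -0.52 with IRF3 and YAP siRNA. KIF2C, which removes wrong attachments, had -0.01 and 0.02, and its level of 41.99 FPKM with IRF3 siRNA, 42.9 FPKM with YAP siRNA and 42.3 FPKM with control siRNA was nearly equal in the 3 libraries.

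The chromosomal passenger complex positions Aurora B. Its scaffold INCENP was the lowest member with either siRNA, with ratios of 0.871 (0.807 to 0.939) with IRF3 siRNA and 0.816 (0.755 to 0.882) with YAP siRNA. BIRC5, survivin, was the highest, at 1.2 (1.15 to 1.26) and 1.07 (1.02 to 1.12) in the same order. The ratio of BIRC5 to INCENP in FPKM was 3.16 with IRF3 siRNA, 2.996 with YAP siRNA and 2.28 with control siRNA.

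All 6 spindle proteins had log2 ratios below 0 with either siRNA, except that PRC1 with YAP siRNA lay above 0 with TMM scaling. None passed 2-fold, where 6.1% and 5.34% of genes with a mean count of at least 20 were lower with IRF3 and YAP siRNA. ASPM, a protein of the spindle poles, was the lowest: it had 201 counts with IRF3 siRNA, 205 with YAP siRNA and 315 with control siRNA, log2 ratios of -0.75 and -0.66. PRC1, which bundles the central spindle, was the highest, at -0.21 with IRF3 siRNA and -0.005 with YAP siRNA. TPX2, which activates Aurora A, had 66.5 FPKM with IRF3 siRNA, 70.4 FPKM with YAP siRNA and 87.3 FPKM with control siRNA. The other 3, NUSAP1, HMMR and DLGAP5, had log2 ratios between -0.59 and -0.38.

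In cytokinesis, ANLN (anillin, which links the contractile ring to the membrane; chromosome 7, 36389806 to 36453791) had 2.78 FPKM with IRF3 siRNA, 3.02 FPKM with YAP siRNA and 6.55 FPKM with control siRNA. Its ratio was 0.424 (0.375 to 0.478) with IRF3 siRNA and 0.461 (0.409 to 0.519) with YAP siRNA. ECT2, the exchange factor that activates RhoA at the cleavage site, had 87 counts with IRF3 siRNA, 87 with YAP siRNA and 177 with control siRNA. Both fell past 2-fold with either siRNA. RACGAP1, which brings ECT2 to the central spindle, had log2 ratios of -0.20 and -0.05.

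In condensin, the complex that compacts mitotic chromosomes, the core ATPases were lowest. SMC2 had 115 counts with IRF3 siRNA, 107 with YAP siRNA and 221 with control siRNA, log2 ratios of -1.04 and -1.09. SMC4 had 191, 123 and 337 counts, log2 ratios of -0.92 and -1.495, and it shares exon sequence with IFT80 and TRIM59 on the opposite strand. NCAPD2, a regulatory subunit, was the highest, with 59.7 FPKM with IRF3 siRNA, 60.7 FPKM with YAP siRNA and 66.8 FPKM with control siRNA. The ratio of SMC4 to NCAPD2 in FPKM was 0.0117 with IRF3 siRNA, 0.00772 with YAP siRNA and 0.0198 with control siRNA. Levels across genes rest on the authors' gene lengths, which cancel when such a ratio is compared between libraries.

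**Figure D3:**
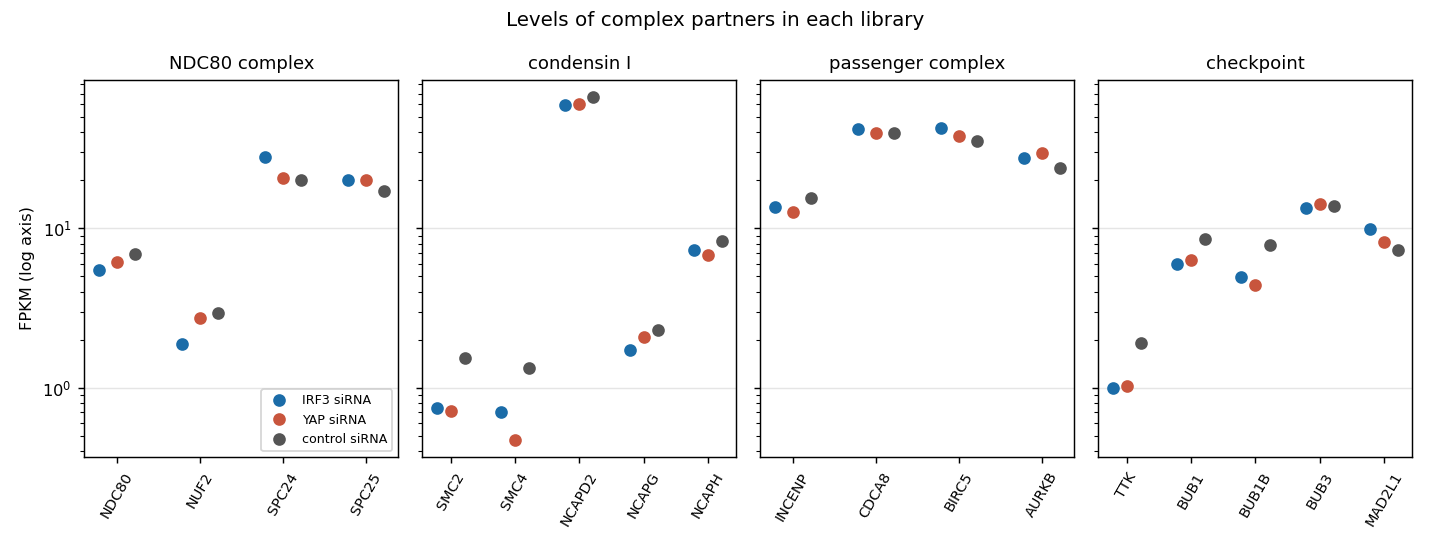
FPKM (log axis) of the subunits of the NDC80 complex, condensin I, the chromosomal passenger complex and the spindle checkpoint, with IRF3 siRNA, YAP siRNA and control siRNA; each point is 1 library. The control siRNA point is the highest for SMC2, SMC4, TTK and BUB1B and the lowest for SPC25, BIRC5 and MAD2L1.

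Of the transcription factors, MYBL2 (B-MYB, the activating partner of MuvB) had 91.7 FPKM with IRF3 siRNA, 82.8 FPKM with YAP siRNA and 71.5 FPKM with control siRNA. Its ratio was 1.28 (1.23 to 1.34) with IRF3 siRNA and 1.16 (1.11 to 1.21) with YAP siRNA. FOXM1, the other, had ratios of 1.02 (0.965 to 1.07) and 0.954 (0.904 to 1.01), and both intervals include 1.

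Long genes were lower than short ones, with either siRNA. The 4 long genes MKI67, CENPF, CENPE and ASPM had a median log2 ratio of -1.01 with IRF3 siRNA, against -0.12 for the other 56, and -1.24 with YAP siRNA, against -0.15. Their summed counts made up 0.00624% of the IRF3 siRNA library, 0.00558% of the YAP siRNA library and 0.0141% of the control library. The other 56 genes made up 0.704%, 0.672% and 0.704%. The 4 long genes thus account for a small part of the mitotic RNA, and MKI67 for most of their counts.

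The same order held across coding length, the longest annotated coding sequence of each gene in GENCODE. All 17 genes with a coding length of at least 3000 bases were below control with IRF3 siRNA, and all 17 with YAP siRNA. Their medians were -0.75 and -0.83. Most protein-coding genes of these lengths were below control too. The upper quartile of their log2 ratios was -0.08 and -0.11 from 3000 to under 6000 bases. With at least 6000 bases it was -0.24 and -0.25. The 28 genes under 2000 bases had medians of 0.13 and 0.02, and 0 of 28 were 2-fold lower in either comparison. That is near the share of all protein-coding genes: with IRF3 siRNA 2.12% of those under 1000 bases and 3.82% of those from 1000 to under 2000 bases were 2-fold lower, while with YAP siRNA 1.4% and 3.73% were. Of the 10 genes past 2-fold 8 had at least 3000 bases, and their median was 4228.5 bases, against 1878 for the other 50. Spearman's rho between coding length and the log2 ratio over the 60 genes was -0.79 with IRF3 siRNA and -0.83 with YAP siRNA, as a description, since all ratios share 3 libraries. Over 12360 protein-coding genes it was -0.37 and -0.41. With the authors' gene length, rho over the 60 genes was -0.44 and -0.49 in the same order. It was 0.71 and 0.73 with mean FPKM, and 0.66 and 0.57 with GC content. The genes past 2-fold also had lower GC content, a median of 38.4% against 46.7%, and a lower level in the control library, a median of 1.43 FPKM against 14.7 FPKM.

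**Figure D4:**
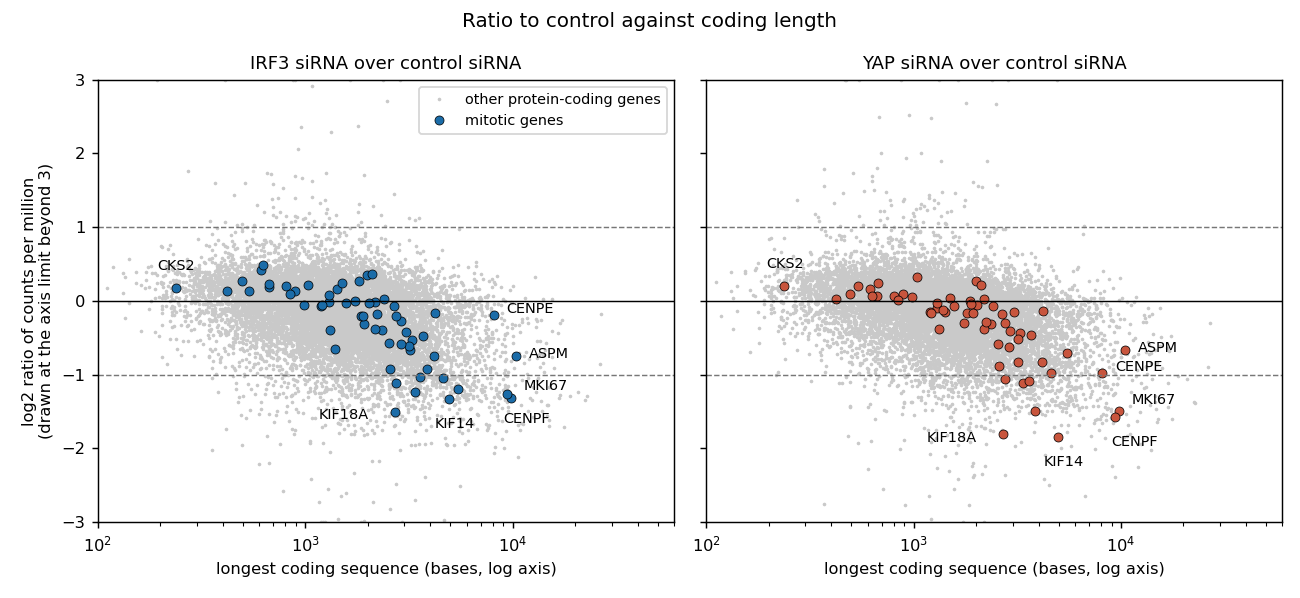
Log2 ratio of CPM against coding length in bases (log axis), for IRF3 siRNA over control siRNA on the left and YAP siRNA over control siRNA on the right; grey points are other protein-coding genes with a mean count of at least 20 and dashed lines are 2-fold. Coloured points, the 60 mitotic genes, slope downward with scatter among the longest. CKS2 lies at 0.18 and 0.20 and MKI67 at -1.31 and -1.498. The 4 long genes range from -1.31 to -0.19 with IRF3 siRNA and from -1.58 to -0.66 with YAP siRNA.

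Genes outside mitosis followed coding length too. From 3000 to under 6000 bases, the 13 mitotic genes had a median of -0.74 with IRF3 siRNA, and all 1470 protein-coding genes of that length had -0.48. With YAP siRNA these medians were -0.83 and -0.42. With at least 6000 bases, the 4 mitotic genes had -1.01 and -1.24 and all 356 genes -0.73 and -0.68. Of those 356, 35.1% were 2-fold lower with IRF3 siRNA and 32.3% with YAP siRNA. Among genes of at least 3000 bases and a GC content below 42%, the 12 mitotic genes had a median of -0.98 with either siRNA, and all 394 genes had -0.92 and -0.90. In that class 6 of 12 mitotic genes (50%) were 2-fold lower with IRF3 siRNA, against 41.6% of all, and 5 of 12 (41.7%) with YAP siRNA, against 40.4%.

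**Figure D5:**
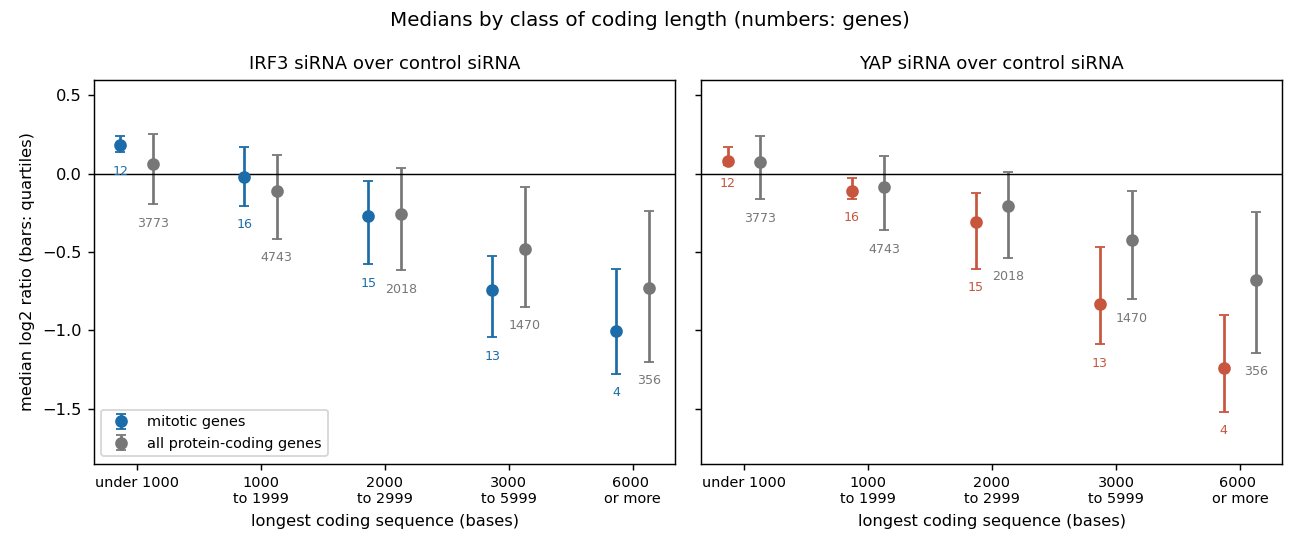
Median log2 ratio in 5 classes of coding length for the mitotic genes and for all protein-coding genes with a mean count of at least 20, with IRF3 siRNA on the left and YAP siRNA on the right, each over control siRNA; bars are quartiles and the numbers count genes. In both sets the medians are lower in each longer class, and at 6000 bases or more they are -1.01 and -1.24 for mitotic genes and -0.73 and -0.68 for all.

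After removal of an additive trend in mean level, coding length and GC content fitted over the 12360 protein-coding genes, 0 of 60 mitotic genes were 2-fold lower with IRF3 siRNA, where 1.34% of all were. With YAP siRNA 2 of 60 were, KIF14 at -1.06 and KIF18A at -1.21, where 1.33% of all were. With IRF3 and YAP siRNA in that order, the remaining log2 ratios were -0.52 and -0.73 for MKI67 and -0.29 and -0.64 for CENPF. They were -0.69 and -0.61 for ANLN and 0.24 and 0.33 for ASPM. The median over the 4 long genes, CENPE included, was -0.023 and -0.35. With the authors' gene length in place of coding length, 1 gene was 2-fold lower with IRF3 siRNA, where 1.75% of all were, and 4 with YAP siRNA, where 1.79% were. The coding-length trend accounted for 32.6% of the variance over genes with IRF3 siRNA and 27.1% with YAP siRNA. The counting intervals do not cover such a trend, and what gave rise to it was not tested.

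Set directly against each other, the knockdowns differed little in these genes. With IRF3 siRNA over YAP siRNA, no gene of 60 was 2-fold lower, beside 0.802% of all genes, and none was 2-fold higher, beside 0.847%. CENPE alone was 1.5-fold higher, beside 2.4% of all genes with a mean of at least 1 FPKM and 3.27% of those with a mean count of at least 20, and its interval (0.917 to 3.44) includes 1. The median log2 ratio was 0.06, and Spearman's rho with coding length was -0.04. The interval lay wholly above 1 in 16 genes, wholly below it in 7 and included 1 in 37, and no share of all genes is given for these counts. PLK1 had 4289 counts with IRF3 siRNA and 3049 with YAP siRNA, a ratio of 1.35 (1.29 to 1.42). SPC24 had a ratio of 1.34 (1.26 to 1.44), SMC4 one of 1.495 (1.19 to 1.89), just short of 1.5-fold, and CDC25B one of 1.23 (1.17 to 1.31). NUF2, named after its values were seen, was the gene furthest in the other direction among those whose interval excludes 1, at 0.695 (0.566 to 0.852), and it shares exon sequence with RGS5 on the opposite strand.

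Summed over the 60 genes, mitotic RNA took a similar share of each library's counts, slightly lower with YAP siRNA: 0.711% of counts with IRF3 siRNA (exact binomial interval 0.706% to 0.715%), 0.678% with YAP siRNA (0.674% to 0.682%) and 0.718% with control siRNA (0.714% to 0.723%). Summed FPKM, in which long genes weigh less, was 1957 with IRF3 siRNA, 1897 with YAP siRNA and 1857 with control siRNA, so its order differs from that of the counts. The log2 ratio of the summed counts was -0.015 with IRF3 siRNA, a value that changes sign with either other scaling (0.086 with TMM), and -0.08 with YAP siRNA, which became 0.0062 with TMM.

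A further 84 genes of mitosis, all with a mean count of at least 20, stayed near the share of all genes. With IRF3 siRNA 6 of 84 were 2-fold lower, where 6.1% of all genes past that filter were. None was 2-fold higher, where 110 of 14111 were. With YAP siRNA 5 of 84 were lower, where 5.34% of all were, and none was higher, where 107 of 14111 were. The median log2 ratio was -0.14 in each comparison. CKAP5, a microtubule polymerase, had 9.21 FPKM with IRF3 siRNA, 9.77 FPKM with YAP siRNA and 20.5 FPKM with control siRNA. SGOL2 (shugoshin 2, a protector of cohesin) had 23 counts with IRF3 siRNA, 34 with YAP siRNA and 84 with control siRNA. CASC5 (KNL1), the kinetochore platform for BUB1, had log2 ratios of -1.20 and -1.14, CENPU of the inner kinetochore -1.10 and -1.03, and KIF3B, better known as a motor of cilia, -1.43 and -1.31. LIN54, the MuvB subunit that binds the CHR, had -1.07 with IRF3 siRNA and -0.65 with YAP siRNA. CENPU, with a coding length of 1254 bases, is a short exception among them.

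The 45 S-phase genes, which include the MCM helicase and the polymerases of replication, had a median log2 ratio of 0.17 with IRF3 siRNA, and of 0.11 with YAP siRNA. None was 2-fold lower than control. Over the 14111 genes with a mean count of at least 20, 6.1% were with IRF3 siRNA and 5.34% with YAP siRNA. None was 2-fold higher either, where 110 and 107 of those genes were. Of the 45, 5 had a coding length of at least 3000 bases, against 17 of the 60 mitotic genes. With the trend in level, coding length and GC content removed, the S-phase medians were 0.27 and 0.21. Those of the 60 mitotic genes were 0.044 and -0.053 in the same order. What sets the lists apart was not tested.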

How the data were processed

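RNA was sequenced from 3 cultures of HGC-27 cells, 1 per group, and total RNA was extracted with TRIzol, per the labels' protocols. The authors deposited 1 column of raw counts and 1 of FPKM per library, per the file headers; alignment used TopHat2 2.0.9 on hg38, per the submitters' processing notes. The sources used here give no gene counter, annotation release, siRNA sequence or strand setting. Of the 60 genes, 23 share exon sequence with another counted gene, 21 of them on the opposite strand, so reads of such pairs cannot be told apart without strand.

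Counts were scaled to CPM by each column's total, 0.5 count was added, and genes at least 2-fold apart were called. Intervals of ratios are 95% exact (Clopper-Pearson) intervals, and PCR copies are not independent molecules, so they cover counting error only. FPKM equals count over length and column total: 100% of 45223 values agreed within 1%. The authors' gene lengths were inferred here from each gene's count, FPKM and column total. They are a median of 1.53 times the union of GENCODE release 29 exons in these genes. Levels are therefore compared between genes only with that limit. Coding length, GC content and exon sharing are from GENCODE release 29. The trend used splines of 4 degrees of freedom per property. Named with values are the 4 long genes, every gene past 2-fold against control and the highest and lowest gene of each role group; other values are named to describe complexes. The genes, lists and calls were chosen with earlier results of these data known. A gene of the comparison lists that passed 2-fold is not reported here. The ratio, interval and calls were tested on simulated data. Alternatives were TMM from edgeR 4.0.16, DESeq2 1.42.0 size factors, FPKM with a pseudocount of 1 or 0.1, filters on level, other fold thresholds, genes sharing no exon sequence and the trend; edgeR and DESeq2 gave scale factors only and no test. Calculations used R 4.3.3, Python 3.11.15, numpy 2.4.6, scipy 1.17.1 and pandas 2.3.3.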

Additional observations from a re-analysis of the deposited data

How the results depend on the processing

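No paired analysis was possible because each group has 1 library and no replicate numbers. The counts of genes 2-fold lower (9 with IRF3 siRNA and 8 with YAP siRNA) moved as follows, with IRF3 siRNA before YAP siRNA: 0 and 1 on the FPKM plus 1 scale, 1 and 0 with a mean of at least 5 FPKM, 4 and 3 with at least 1 FPKM, 1 and 4 with the trend in level, the authors' length and GC content removed, 0 and 2 with coding length in that trend, 0 and 2 at 3-fold, 17 and 17 at 1.5-fold, and 3 and 5 where the whole counting interval had to lie past 2-fold. The filters at 5 and 1 FPKM left 40 and 51 genes. Without genes sharing exon sequence, 7 and 5 of 37 genes were 2-fold lower, with IRF3 siRNA before YAP siRNA. For the counts at 5 FPKM, at 3-fold, by whole interval and without exon sharing, no share of all genes is given. The direct comparison had 1 gene higher at 1.5-fold.

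The median of the 60 genes with IRF3 siRNA (-0.19) became -0.020 at 5 FPKM, -0.052 at 1 FPKM and 0.044 with the coding-length trend removed. The 4 long genes minus the others (-0.89 with IRF3 siRNA, -1.08 with YAP siRNA) became -0.50 and -0.49 on the FPKM plus 1 scale, -1.22 and -1.39 at 1 FPKM, -0.46 and -0.72 with the trend in the authors' length removed, -0.066 and -0.30 with that in coding length removed, and -0.44 and -0.45 when the 60 genes were split at the median of the authors' length. Split at the median coding length, it was -0.66 with YAP siRNA, and directly between the knockdowns -0.053, against 0.20. No long gene has a mean of 5 FPKM, so that filter gave no value.

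The log2 ratio of the summed level with IRF3 siRNA became 0.086 with TMM, 0.098 with DESeq2 size factors and 0.017 without genes sharing exon sequence. With YAP siRNA it became 0.0062, -0.0023 and -0.053 in that order, and in the direct comparison (0.068) it became 0.0999 with DESeq2 size factors. The scalings shifted all log2 ratios to control by 0.10 and 0.09 (TMM) and by 0.11 and 0.08 (DESeq2) with IRF3 and YAP siRNA. The 3-library design gives no estimate of variation between cultures, and genes under about 100 counts have wide counting intervals. The alternatives with genes filtered at 1 FPKM, whole intervals, no exon sharing, coding length and its trend were added after seeing the data. The cause of each move was not tested.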
